A study of Mus musculus with 14 samples.

Results

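The genes described here encode 9 adhesion receptors of B cells: the integrin alpha subunits Itga4, Itga6 and Itgal, the integrin beta subunits Itgb1, Itgb2 and Itgb7, the selectin ligand Selplg, the hyaluronan receptor Cd44 and the integrin ligand Icam1. They were taken by gene symbol, and all 9 were found among 18193 genes, on 23 of 45101 probe sets. Each gene is given by its brightest probe set, and its other probe sets serve as a check. RNA was amplified and measured on 14 Affymetrix arrays. It came from B cells of male C57Bl/Ka mice, sorted by flow cytometry out of the spleen. Plasma cells (4 arrays, mice of 5 to 9 weeks) were taken 7 days after immunization with NP-CGG in alum, a hapten on a carrier protein. They bound NP and were low for B220 and IgM, positive for the lambda light chain and syndecan-1, and negative for PNA. Memory cells (4 arrays, 14 to 18 weeks old) were taken 10 to 12 weeks after the same immunization as NP-binding, B220+, CD38-high and lambda+ cells without IgM, IgD or PNA. Germinal center cells (3 arrays, 6 to 10 weeks old) were taken at day 14 as NP-binding, B220+, PNA+ and CD38-low cells with little or no IgM and low lambda. Naive cells (3 arrays, 4 to 8 weeks old) came from mice without immunization and were B220+, CD23+, IgM-low, IgD+ and lambda+. The antigen dose was 100 µg where a label gives it, which is on every immunized array except plasma replicate 1. Myeloid and erythroid cells (CD11b, Gr-1, Ter119) and T cells (CD3, CD4, CD8, CD5) were gated out of every sort, and CD5 also marks B1 cells. Subset, age and time after antigen changed together and cannot be told apart. The labels do not say whether replicates came from separate animals, so p-values rest on the spread between samples alone, and that spread may be technical.

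Integrins are pairs of an alpha and a beta subunit that bind ligands on other cells or in the matrix once signals inside the cell switch them to an active shape. Alpha 4 pairs with beta 1 to bind VCAM-1 and fibronectin, and with beta 7 to bind MAdCAM-1 in gut vessels, while alpha 6 with beta 1 binds laminin. Alpha L with beta 2 forms LFA-1, whose ligand ICAM-1 is itself made by B cells, and the LFA-1 and alpha 4 beta 1 pairs hold B cells in the splenic marginal zone and at the follicular dendritic cells of the germinal center. PSGL-1, the product of Selplg, carries sugars that selectins recognise, and CD44 binds the matrix sugar hyaluronan. In bulk RNA of sorted cells, fewer cells that make a transcript and less transcript per cell cannot be told apart.

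Between 52.7% and 66.9% of genes lay above the background of their array, taken as the brightest of 27 bacterial control probe sets, which ran from 10.96 to 16.1 in intensity. All values below are intensities on a linear scale, or fold changes as differences of log2 means with the SE of the fit. Intensities are compared only within a probe set. Of the markers, 5 of 5 plasma cell genes were above background on every plasma array, 3 of 3 measured memory genes on every memory array, and 5 of 5 measured germinal center genes on every germinal center array. This does not set the subsets apart. Xbp1 and Irf4 were above background on every array, and Nt5e measured 51.2 to 151 in germinal center and 61.8 to 156 in memory cells. Sdc1 (syndecan-1) measured 103 to 190 in naive cells, against 1965 to 3435 in plasma cells. Jchain measured 1419 to 2027 in germinal center cells, against 10767 to 14629.5 in plasma cells. Mki67 was high in plasma cells too (5467 to 6522). Of 3 measured naive genes Fcer2a was highest in naive cells (1560 to 1808). Ighm was highest in plasma cells (14594 to 21776, against 5741 to 9437 in naive cells), and Cr2 overlapped between memory and naive cells. Among 6116 bright genes the median log2 change from naive cells was -0.25 in plasma, -0.20 in memory and -0.20 in germinal center cells, so a small fall lies within that shift. The actin probe sets for the 3' end and the middle of the transcript gave a signal ratio that grows as RNA is shorter. This ratio averaged 6.27 ± 0.72 on plasma, 4.63 ± 0.50 on memory, 11.3 ± 5.8 on germinal center and 4.79 ± 0.46 on naive arrays (SD over 4, 4, 3 and 3 arrays), with the highest mean and the widest spread in germinal center cells. The Gapdh ratio ordered the subsets differently, at 6.91 ± 1.2 on plasma, 12.0 ± 0.96 on memory, 9.40 ± 1.3 on germinal center and 10.6 ± 1.3 on naive arrays, and no fit holds it as a covariate. The part of RNA length in the results was not tested beyond the fits that hold the actin ratio as a covariate.

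The adhesion genes separated the subsets by different members. In plasma against naive cells 4 of 9 rose (Itga4, Itgb1, Selplg and Cd44) and 3 fell (Itga6, Itgb7 and Icam1), while over all genes 14.2% rose and 16.1% fell (30.3% called) at an adjusted p under 0.05 in limma. In memory against naive cells Itga4 and Cd44 rose and Itga6 fell, against 2.31% of all genes higher and 3.26% lower (5.57% called). In germinal center against naive cells 4 fell (Itga4, Itga6, Itgb7 and Selplg) and 0 rose, against 11.1% of all genes lower and 8.37% higher (19.5% called). All 9 passed in plasma against germinal center cells, with 7 higher and 2 lower, against 11.2% of all genes higher and 12.6% lower (23.8% called). In memory against germinal center cells 6 of 9 were called, against 22.4% of all genes. These were Itga4, Itgal, Itgb2, Itgb7, Selplg and Cd44, each higher in memory cells. In plasma against memory cells 6 of 9 were called, against 33.2%. Itgb1, Selplg and Cd44 were higher in plasma cells, and Itga6, Itgb7 and Icam1 lower. With arrays centred on bright genes, 69.4%, 61.7% and 60.2% of the genes called in plasma, memory and germinal center against naive cells were higher, where the values as deposited gave 46.8%, 41.5% and 43.0%. In that fit Itgal and Itgb2 also passed as higher in plasma cells, and Icam1 in germinal center cells. The falls of Itga6 in memory and germinal center cells no longer passed. The median log2 change over the 9 genes was 0.54 in plasma, 0.43 in memory and -0.51 in germinal center cells against naive cells, where the medians over all genes were 0.06, -0.03 and 0.06. The comparisons against naive cells share the same 3 naive arrays.

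**Figure D1:**
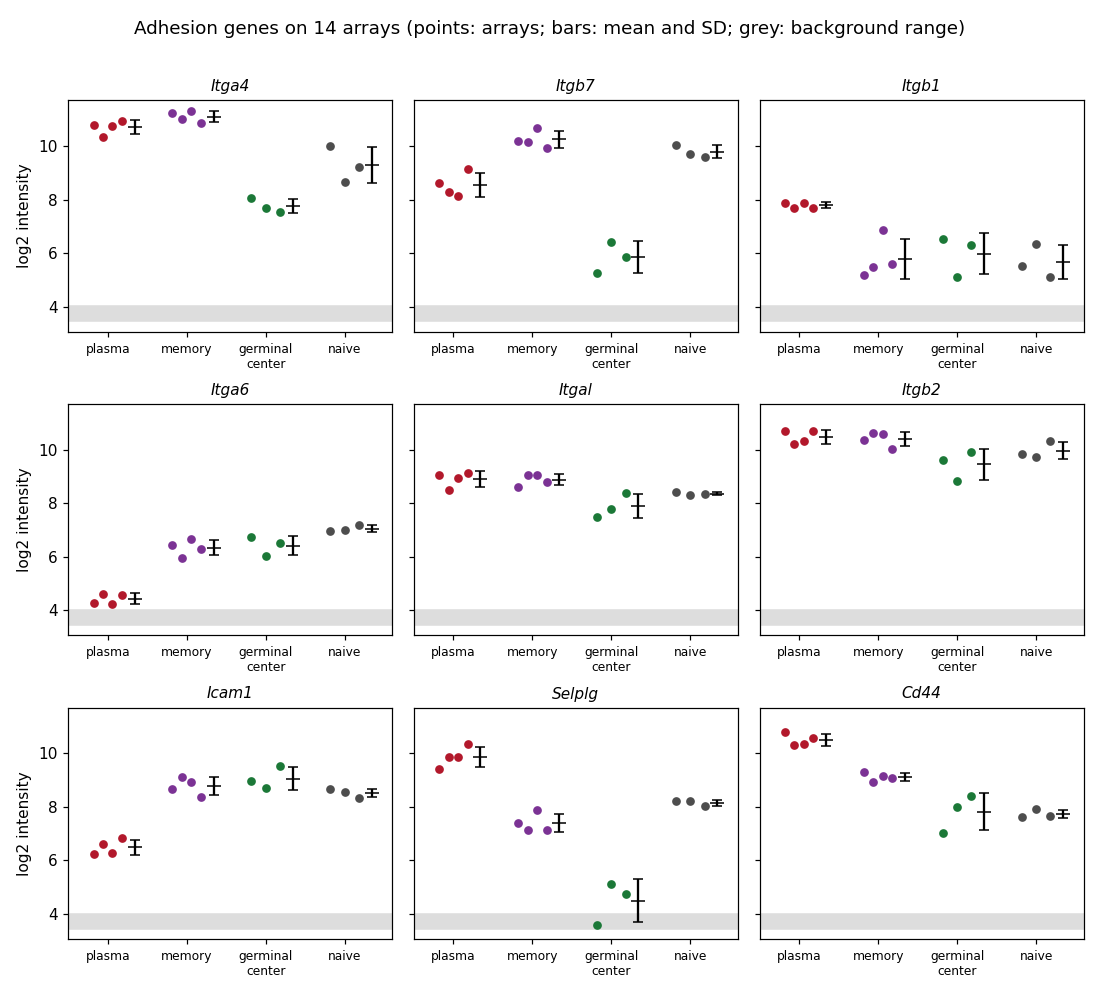
Log2 intensity of the 9 adhesion genes on each array, by subset. Points are arrays, black bars the mean and SD of a subset, and the grey band the range of array backgrounds from 10.96 to 16.1 in intensity. Selplg in germinal center cells is the lowest, with 1 array in the band, and Itga6 in plasma cells lies just above it.

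**Figure D2:**
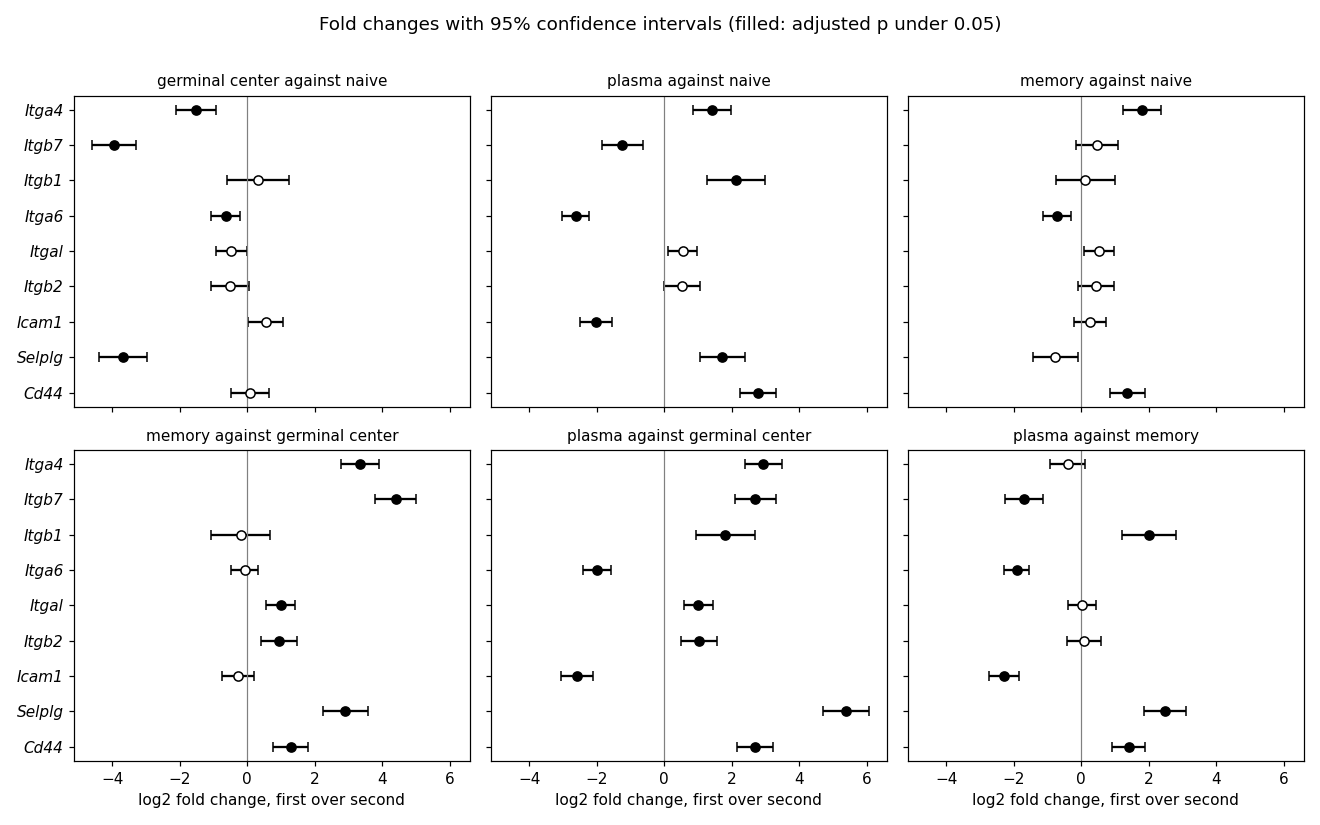
Log2 fold change of each adhesion gene (first subset over second) in 6 comparisons, with 95% confidence intervals. Filled circles passed at an adjusted p under 0.05, and all 9 did so in plasma against germinal center cells.

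Itga4, the alpha 4 subunit, was highest in memory and plasma cells and lowest in germinal center cells. It measured 1776, 1286, 1725 and 1942 on plasma arrays, 2389.6, 2073, 2540.1 and 1839 on memory arrays, 268, 208 and 185 on germinal center arrays, and 1021, 401 and 603 on naive arrays. Every plasma and memory array lay above every naive array, and every germinal center array lay below them, although the naive arrays themselves spread widely. Against naive cells it rose by 1.41 ± 0.26 in plasma cells (n = 4 and 3, adjusted p = 0.000704, limma) and by 1.81 ± 0.26 in memory cells (adjusted p = 8e-04), and it fell by 1.53 ± 0.28 in germinal center cells (n = 3 and 3, adjusted p = 0.00111). Memory exceeded germinal center cells by 3.33 ± 0.26, or 10.1-fold. Plasma and memory cells overlapped and did not pass (-0.40 ± 0.24, interval -0.91 to 0.12, adjusted p = 0.238).

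Itgb7, which pairs with alpha 4, was also lowest in germinal center cells, though above background on all 3 arrays, and followed a different order elsewhere. Plasma arrays measured 392, 309.6, 282 and 566, memory arrays 1183, 1133, 1656 and 979.8, germinal center arrays 38.1, 86.5 and 57.9, and naive arrays 1062, 832 and 775. The germinal center arrays lay far below all others, the plasma arrays stood between, and memory and naive arrays overlapped. Against naive cells Itgb7 fell by 3.94 ± 0.30 in germinal center cells (15.3-fold, adjusted p = 3.88e-07, limma) and by 1.24 ± 0.28 in plasma cells (adjusted p = 0.00373). Memory and naive cells did not pass (0.46 ± 0.28, interval -0.15 to 1.07, adjusted p = 0.458). In plasma cells the 2 subunits thus moved in opposite directions from naive cells, and in memory cells Itga4 rose while the change of Itgb7 did not pass. Memory exceeded germinal center cells by 4.40 ± 0.28 for Itgb7 (21.1-fold), and plasma exceeded germinal center cells by 2.70 ± 0.28.

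The promoters of this pair, which were both lowest in germinal center cells, are shown with the letters CACCC or its reverse complement in capitals, a core bound by Kruppel-like factors. They are from RefSeq on GRCm38.p6, run 5' to 3' on the gene's strand and cover 250 bases before to 50 after the gene start. Itga4 lies on the plus strand (chr2:79255176-79255475) and Itgb7 on the minus strand (chr15:102231886-102232185).
Itga4: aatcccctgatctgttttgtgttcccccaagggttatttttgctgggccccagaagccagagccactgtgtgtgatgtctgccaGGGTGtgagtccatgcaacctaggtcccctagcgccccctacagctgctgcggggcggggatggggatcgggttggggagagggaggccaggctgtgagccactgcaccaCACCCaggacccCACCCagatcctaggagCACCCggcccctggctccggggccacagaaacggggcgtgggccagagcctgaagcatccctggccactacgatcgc
Itgb7: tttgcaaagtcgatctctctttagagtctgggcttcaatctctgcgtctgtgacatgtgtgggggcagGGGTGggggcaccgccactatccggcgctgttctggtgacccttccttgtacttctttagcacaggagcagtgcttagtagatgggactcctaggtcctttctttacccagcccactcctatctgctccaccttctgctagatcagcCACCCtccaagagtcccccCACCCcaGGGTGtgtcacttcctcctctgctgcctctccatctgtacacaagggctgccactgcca

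Each of these windows holds 4 matches, 3 of them within 56 bases before the start in Itga4 and within 35 bases in Itgb7. Of 32851 promoter windows of this length 57.5% hold at least 1 match on either strand, and the median is 1. Of the 9 genes 5 had a promoter entry (Itga4, Itgb1, Itgb7, Cd44 and Icam1). CACCC also matched 3 times in Icam1, which was lowest in plasma cells, 2 times in Itgb1 and 0 times in Cd44. Matches were thus not confined to the pair. The letters GAGGAA, a core of PU.1 sites, matched in Itgb1, Itgb7 and Cd44 (28.3% of all windows hold it), and GTGAAA, found in Blimp-1 sites, in none of the 5 (12.9% of all windows). No matches of different motifs overlapped in these 5 windows. A match is a description of letters and says nothing about binding in these cells.

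Itgb1, the beta 1 subunit shared by many integrins, was high in plasma cells alone. It measured 236, 207, 235 and 208 on plasma arrays, 36.5, 44.2, 117 and 48.9 on memory arrays, 92.7, 34.4 and 78.7 on germinal center arrays, and 46.0, 81.8 and 34.6 on naive arrays. The 4 plasma arrays were close to each other and above all 10 others, which overlapped among themselves. Plasma exceeded naive cells by 2.12 ± 0.40 (adjusted p = 0.000932, limma), memory cells by 2.00 ± 0.37 (adjusted p = 0.000692) and germinal center cells by 1.81 ± 0.40 (adjusted p = 0.00405). With the actin covariate the plasma difference from germinal center cells was 1.19 and did not pass (adjusted p = 0.102). The other subsets did not pass against each other, with adjusted p from 0.673 to 0.936, but their intervals were wide and reached 1.24 for germinal center against naive cells.

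Itga6, the alpha 6 subunit of laminin receptors, ran the other way and was lowest in plasma cells. Plasma arrays measured 19.1, 24.5, 19.0 and 24.1, memory arrays 85.8, 62.5, 102 and 79.0, germinal center arrays 106, 65.4 and 91.0, and naive arrays 125, 129 and 146. Plasma arrays lay just above background and below all others, and naive arrays lay above all others. Against naive cells Itga6 fell by 2.63 ± 0.19 in plasma cells (6.18-fold, adjusted p = 8.25e-08, limma). The falls in memory cells (-0.72 ± 0.19, adjusted p = 0.0412) and germinal center cells (-0.64 ± 0.20, adjusted p = 0.0405) passed narrowly and were lost in 17 and 15 of 25 alternative fits. Memory and germinal center cells overlapped (-0.08, interval -0.49 to 0.33, adjusted p = 0.816).

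The subunits of LFA-1, Itgal and Itgb2, moved over a smaller range than the other 7 genes. Itgal measured 525, 359, 487 and 565 on plasma arrays, 392, 529, 529 and 444 on memory arrays, 179.9, 222 and 331 on germinal center arrays, and 340.3, 318 and 326 on naive arrays. All plasma and memory arrays were above all naive arrays, and germinal center replicate 3 overlapped the naive arrays. Itgb2 measured 1667, 1179.7, 1272 and 1644 on plasma arrays, 1299.7, 1561, 1527 and 1055 on memory arrays, 793, 450.2 and 964 on germinal center arrays, and 906, 845 and 1289.7 on naive arrays. Here too the plasma and memory arrays overlapped each other and lay above the germinal center arrays, but they overlapped the naive arrays. Against germinal center cells Itgal was higher by 1.01 ± 0.20 in plasma (adjusted p = 0.00179, limma) and 0.99 ± 0.20 in memory cells (adjusted p = 0.0025). Itgb2 was higher by 1.02 ± 0.25 in plasma (adjusted p = 0.00695) and 0.94 ± 0.25 in memory cells (adjusted p = 0.013).

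Neither LFA-1 gene passed against naive cells in any subset. Itgal in plasma cells came nearest (0.54 ± 0.20, interval 0.10 to 0.98, adjusted p = 0.0599, limma), and 9 of 25 alternative fits called it. Itgb2 in plasma cells was 0.52 ± 0.25 (adjusted p = 0.142), and passed in 2 of 25, with arrays centred on bright genes (0.77, adjusted p = 0.0127) and with the actin covariate (0.74, adjusted p = 0.0302). For plasma against memory cells the difference was 0.02 for Itgal (interval -0.38 to 0.43) and 0.08 for Itgb2 (interval -0.41 to 0.58). With the actin ratio as a covariate Itgb2 was higher by 0.27 in memory (adjusted p = 0.782) and 0.60 in plasma cells (adjusted p = 0.162) than in germinal center cells, and neither passed. Itgal in memory against germinal center cells was then 0.61 (adjusted p = 0.321), and with its second probe set 0.13 (adjusted p = 0.638). Without germinal center replicate 2, the array with the highest actin ratio (17.6), Itgb2 in memory against germinal center cells was 0.62 (adjusted p = 0.066).

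Icam1, the LFA-1 ligand and a target of NF-kappa B, was low in plasma cells alone. It measured 75.4, 96.7, 76.9 and 115 on plasma arrays, 405, 560.0, 484 and 331 on memory arrays, 500.5, 415 and 728 on germinal center arrays, and 401, 378 and 323 on naive arrays. No plasma array reached the others, and germinal center arrays lay above all naive arrays. Icam1 in plasma cells was lower by 2.03 ± 0.22 than in naive cells (4.08-fold, adjusted p = 5.5e-06, limma). The plasma level differed by -2.29 ± 0.20 from memory cells (adjusted p = 6.26e-07) and by -2.57 ± 0.22 from germinal center cells (adjusted p = 6.7e-07). Germinal center against naive cells gave 0.54 ± 0.24 (interval 0.04 to 1.05, adjusted p = 0.132), which passed with quantile normalization (0.72, adjusted p = 0.0391) and with arrays centred on bright genes (0.73, adjusted p = 0.0281). Memory cells passed against neither naive nor germinal center cells (adjusted p = 0.646 and 0.408).

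The Icam1 promoter is shown with the letters GGNNNTTCC or their reverse complement, a core of NF-kappa B sites, in capitals (RefSeq, GRCm38.p6, chr9:21015690-21015989, plus strand).
Icam1: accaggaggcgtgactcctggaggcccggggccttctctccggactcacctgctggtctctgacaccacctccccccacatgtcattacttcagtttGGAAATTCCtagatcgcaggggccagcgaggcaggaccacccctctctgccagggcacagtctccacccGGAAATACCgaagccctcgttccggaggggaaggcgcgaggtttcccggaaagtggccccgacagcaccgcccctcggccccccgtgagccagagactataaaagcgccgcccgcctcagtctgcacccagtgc

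The window holds 2 such matches, which begin 153 and 84 bases before the start. The same letters occur in 18.5% of all 32851 windows, and among the 5 windows available here in Icam1 and Itgb1.

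Selplg, the gene of the selectin ligand PSGL-1, had the widest range of the 9 genes. It measured 686, 922, 925 and 1295 on plasma arrays, 169, 141, 234 and 141 on memory arrays, 12.0, 34.8 and 26.9 on germinal center arrays, and 298, 299.7 and 259 on naive arrays. The 4 subsets did not overlap, and germinal center replicate 1 lay below its background of 14.1. Selplg rose by 1.71 ± 0.31 in plasma cells (adjusted p = 0.000632, limma) and fell by 3.67 ± 0.33 in germinal center cells (12.7-fold, adjusted p = 1.96e-06) against naive cells. Plasma exceeded germinal center cells by 5.38 ± 0.31, or 41.7-fold as fitted (adjusted p = 1.24e-08), and memory cells by 2.48 ± 0.29. Memory cells exceeded germinal center cells by 2.90 ± 0.31 (adjusted p = 9.45e-06). Memory against naive cells did not pass, although the arrays did not overlap (-0.77 ± 0.31, interval -1.44 to -0.10, adjusted p = 0.203).

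PSGL-1 binds selectins only after enzymes have added sugars and sulfate to it, and single genes of that set differed in plasma cells. Of 12 measured selectin and ligand-building genes 4 rose and 2 fell in plasma against naive cells, against 14.2% of all genes higher and 16.1% lower. Those that rose were Fut4, a fucosyltransferase, Tpst1 and Tpst2, which sulfate tyrosines, and B4galt1, a galactosyltransferase. Fut4 measured 122, 130.2, 150.2 and 83.5 on plasma arrays, and lay below background on all 10 others, at 7.49 to 12.3. It was at least 9.16-fold higher in plasma than in naive cells (adjusted p = 4.88e-09, limma). Tpst1 rose by 1.90 ± 0.18, Tpst2 by 2.17 ± 0.25 and B4galt1 by 1.69 ± 0.23. Gcnt1, which starts the branched sugar that carries the selectin epitope, measured 8.77, 12.4, 10.5 and 10.5 on plasma arrays and 165, 163 and 231 on naive arrays. The plasma values lay below background on all 4 arrays, at least 13.4-fold below naive cells (adjusted p = 2.22e-09). Selp, the gene of P-selectin, fell by 0.55 ± 0.18 at levels near background. Fut7, the main fucosyltransferase of selectin ligands in leukocytes, did not pass in any comparison and did not exceed 25.3.

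In germinal center cells Tpst2 (20.0, 24.3 and 44.2, against 98.9, 93.4 and 107 in naive cells) and B4galt1 (36.0, 62.3 and 58.3, against 132, 126 and 125 in naive cells) fell along with Selplg. The changes were -1.84 ± 0.27 (adjusted p = 0.000166, limma) and -1.33 ± 0.25 (adjusted p = 0.00125). These were the only 2 of 12 called against naive cells, where 0 rose. That count is near the share over all genes, of which 19.5% were called and 11.1% were lower. In memory cells Tpst2 rose by 1.12 ± 0.25 (adjusted p = 0.0172), while Gcnt1 fell by 1.43 ± 0.21 and Tpst1 by 0.83 ± 0.18. These were the 3 of 12 called in memory against naive cells, beside 5.57% of all genes. In plasma against germinal center cells Fut4 was at least 8.40-fold higher, Tpst2 higher by 4.01 ± 0.25, B4galt1 by 3.03 ± 0.23 and Tpst1 by 2.18 ± 0.18. Gcnt1 was at least 9.17-fold lower there.

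**Figure D3:**
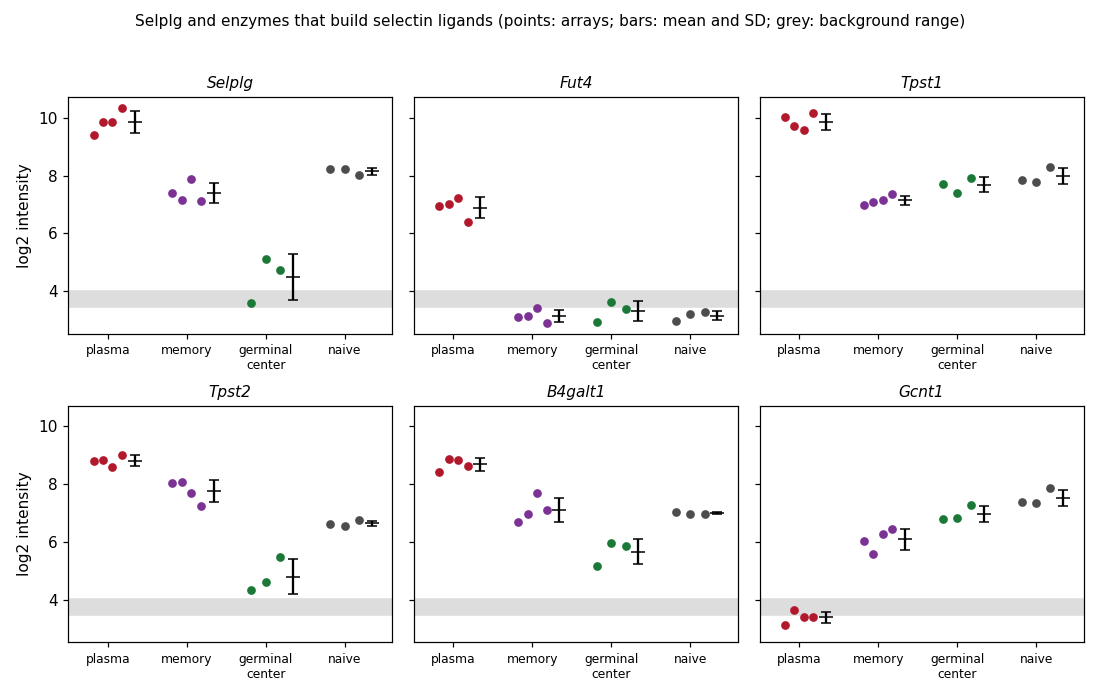
Log2 intensity of Selplg and 5 enzymes that build selectin ligands, by subset. Points are arrays, black bars the mean and SD, and the grey band the range of array backgrounds. Fut4 leaves the background only in plasma cells, where Gcnt1 falls into it, and Tpst2 and B4galt1 are lowest in germinal center cells, as is Selplg.

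Cd44, the hyaluronan receptor, was highest in plasma cells and second highest in memory cells. It measured 1781, 1270.0, 1315 and 1504 on plasma arrays, 623, 485, 564 and 533 on memory arrays, 132, 258 and 339 on germinal center arrays, and 199, 240.2 and 203 on naive arrays. Plasma arrays lay above memory arrays, and these above the germinal center and naive arrays, which overlapped. Against naive cells Cd44 rose by 2.77 ± 0.25 in plasma (6.82-fold, adjusted p = 7.15e-07, limma) and by 1.36 ± 0.25 in memory cells (adjusted p = 0.00442). Plasma exceeded memory cells by 1.41 ± 0.23 (adjusted p = 0.000203) and germinal center cells by 2.69 ± 0.25 (adjusted p = 1.31e-06). Memory exceeded germinal center cells by 1.28 ± 0.25 (adjusted p = 0.00154), which did not pass with the actin ratio as a covariate (1.04, adjusted p = 0.155), with the mean of all probe sets (0.36, adjusted p = 0.05) or with the second brightest probe set (0.42, adjusted p = 0.422). Germinal center against naive cells gave 0.08 with an interval from -0.48 to 0.65.

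Ezrin, radixin and moesin link the tails of CD44 and PSGL-1 to actin, and their genes did not follow Cd44. Rdx (radixin) was between 1067 and 2001 on plasma arrays, 319.7 and 726 on memory arrays, 78.9 and 140.1 on germinal center arrays, and 1116 and 1502 on naive arrays. It fell by 3.47 ± 0.30 in germinal center (adjusted p = 1.39e-06, limma) and by 1.34 ± 0.28 in memory cells (adjusted p = 0.0123) against naive cells. Ezr (ezrin) fell by 1.19 ± 0.28 in plasma and by 1.38 ± 0.30 in germinal center cells, and Msn (moesin) by 1.48 ± 0.23 and 0.83 ± 0.25. A wider list of 13 measured genes around CD44 and hyaluronan is not confined to proteins that bind CD44. It also holds hyaluronan synthases, Lyve1 and Itpkb. Of these 13 genes 2 rose and 3 fell in plasma, 0 rose and 1 fell in memory, and 2 rose and 3 fell in germinal center cells against naive cells. Over all genes 30.3%, 5.57% and 19.5% were called. In germinal center cells the second rise was Has2, above background on 0 arrays, and the 5 calls became 3 without naive replicate 1 or without germinal center replicate 1 and 2 with the actin covariate or the second brightest probe set. The rises included Hmmr, a hyaluronan-binding protein of the mitotic spindle (5.91 ± 0.45 in plasma and 5.12 ± 0.48 in germinal center cells). Icam2, another LFA-1 ligand, fell by 1.05 ± 0.26 in plasma and by 1.83 ± 0.28 in germinal center cells. In germinal center cells it was the only 1 of 12 measured counter-receptors called, a lower share than the 19.5% of all genes. With the actin covariate 0 were called there. In plasma cells 3 of these 12 rose and 2 fell, against 14.2% of all genes higher and 16.1% lower. The rises included Lama5, a laminin chain (0.96 ± 0.19, adjusted p = 0.00135, limma), and Vcam1, the ligand of alpha 4 beta 1 (0.71 ± 0.20, adjusted p = 0.0154). Vcam1 was dim, at 17.2 to 34.2 in plasma and 13.0 to 17.3 in naive cells, and these arrays overlapped. The 5 plasma calls became 2 without naive replicate 3, and 3 without naive replicate 1, without plasma replicate 2, with a floor of 16 or with the second brightest probe set.

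Most other integrin subunits did not pass. Of 19 measured subunits 11 lay above background on at least 1 array, and 3 were called in plasma, 2 in memory and 2 in germinal center against naive cells, where 30.3%, 5.57% and 19.5% of all genes were. The germinal center calls were Itgb3 and Itgb4, and Itgb4 lay above background on 0 arrays. That count was 0 without germinal center replicate 1 and 0 with the actin covariate, and it was 1 in the other fits that moved it by over 1.5 times. Itgb3, which pairs with alpha V, had medians of 93.4 in plasma, 32.9 in memory, 289 in germinal center and 103 in naive cells. It rose by 1.52 ± 0.38 in germinal center (adjusted p = 0.0115, limma) and fell by 1.81 ± 0.36 in memory cells (adjusted p = 0.00854) against naive cells. Its partner gene Itgav fell by 1.14 ± 0.30 in plasma cells (adjusted p = 0.00927). Itgae, which pairs with beta 7 to bind E-cadherin, had a median of 46.8 in memory cells (39.6 to 77.4), against 15.1 in plasma, 15.5 in germinal center and 17.4 in naive cells. Memory cells exceeded naive cells by 1.77 ± 0.23 (adjusted p = 0.000419), plasma cells stood at -1.71 ± 0.22 from memory cells (adjusted p = 2e-05), and the memory arrays overlapped no others. These calls against naive cells rest on the brightest probe sets, since the second of Itgae gave 0.26 in memory cells (adjusted p = 0.389, above background on 8 of 14 arrays). The second of Itgb3, above background on 3 of 14 arrays, gave 0.35 in germinal center (adjusted p = 0.22) and -0.0012 in memory cells (adjusted p = 0.999). Itgam, the gene of the excluded marker CD11b, was below background on all 14 arrays.

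Genes that regulate integrins, in either direction, or tie them to actin fell in many members in germinal center and plasma cells. Of 28 measured genes 13 fell and 0 rose in germinal center cells, 13 fell and 5 rose in plasma cells, and 0 fell and 1 rose in memory cells, each against naive cells. Over all genes 19.5%, 30.3% and 5.57% were called in that order. The median log2 changes of the 28 genes were -0.92, -0.37 and -0.05, where the medians of all genes were 0.06, 0.06 and -0.03 and those of the 6116 bright genes -0.20, -0.25 and -0.20. The plasma median thus lay near that of bright genes, and 27 of the 28 lay above background on some array. Vcl (vinculin), which joins integrins to actin, had medians of 468 in plasma, 292 in memory, 29.2 in germinal center and 281 in naive cells. It fell by 3.17 ± 0.24 in germinal center cells (adjusted p = 3.09e-07, limma) and rose by 0.77 ± 0.22 in plasma cells. Cytip, which restrains LFA-1 through cytohesin-1, fell by 2.93 ± 0.13 in germinal center cells, to a median of 1156 against 8680 in naive cells.

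Genes around Rap1, the GTPase that activates LFA-1, moved in both directions. Rap1a, a Rap1 gene itself, rose by 1.08 ± 0.23 in plasma against naive cells (adjusted p = 0.00185, limma), to a median of 5257 against 2443, and did not pass in memory or germinal center cells. Rap1b, the other Rap1 gene, was highest on naive arrays (2534 to 2962), which overlapped no others. It measured 1113 to 1730 in plasma, 1506 to 2502 in memory and 670 to 1619 in germinal center cells. Rassf5, the Rap1 effector RAPL, fell by 1.78 ± 0.15 in plasma and 2.31 ± 0.16 in germinal center cells. Rasgrp2, an activator of Rap1, fell by 1.90 ± 0.16 and 1.56 ± 0.17, and Stk4, a kinase partner of RAPL, by 1.63 ± 0.20 and 0.90 ± 0.21. Skap2, an adaptor for integrin activation, fell by 2.37 ± 0.24 in plasma cells, while Cd9, a tetraspanin partner of integrins (1.54 ± 0.22), and Itgb1bp1, which binds the beta 1 tail (1.20 ± 0.35), rose there. The talin gene Tln1 passed in no subset against naive cells (0.42 ± 0.23, 0.44 ± 0.23 and -0.22 ± 0.24 in plasma, memory and germinal center cells). In memory cells Cd81, a tetraspanin of the B cell coreceptor, was the 1 gene called (0.70 ± 0.14). Memory exceeded germinal center cells in 13 of the 28 genes and was lower in 0, where 22.4% of all genes were called in either direction. With the actin ratio as a covariate 8 rather than 13 were called in germinal center against naive cells, and 5 rather than 13 in memory against germinal center cells. Without germinal center replicate 1, 8 were called in memory against germinal center cells.

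**Figure D4:**
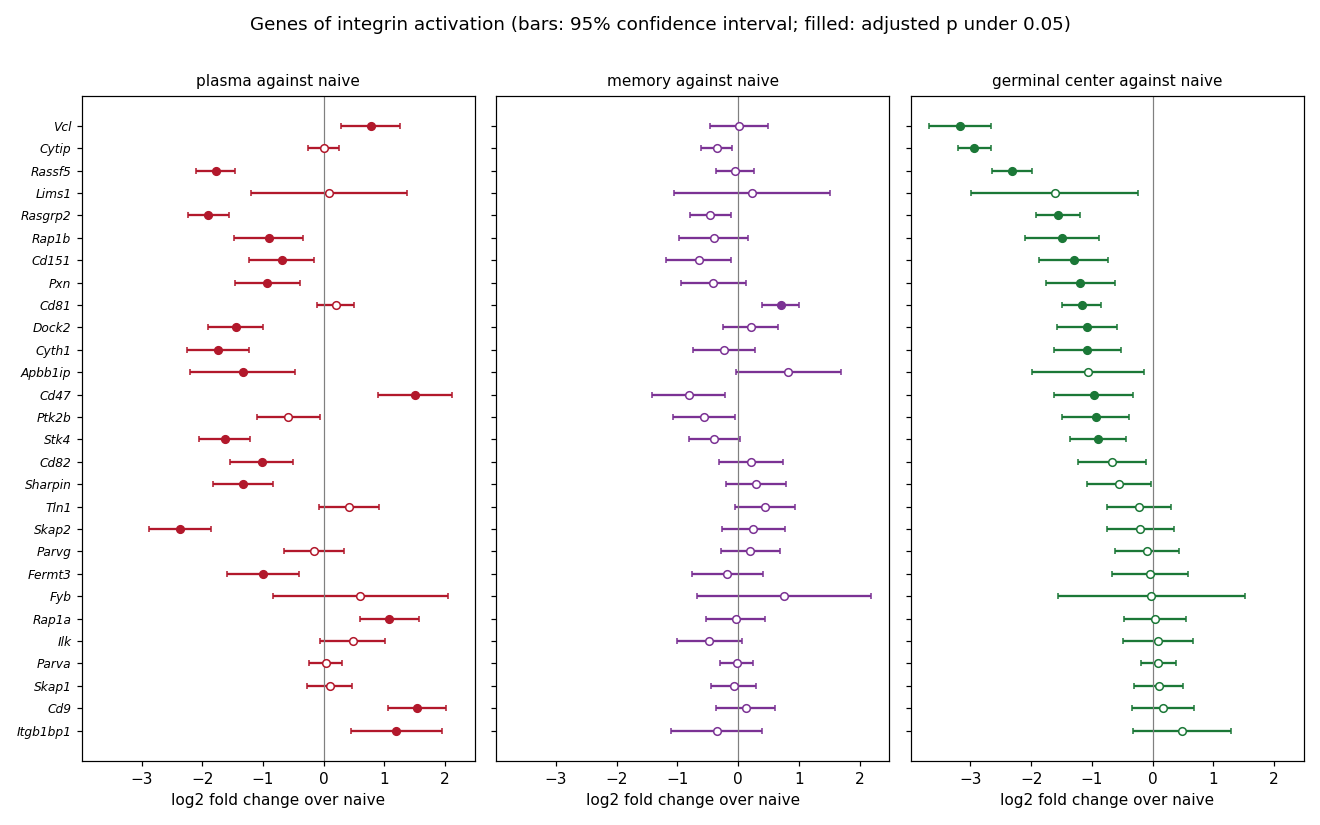
Log2 fold change over naive cells, with 95% confidence intervals, of 28 genes of integrin activation in plasma, memory and germinal center cells. Filled circles passed at an adjusted p under 0.05, and the genes are sorted by their germinal center value. Vcl, Cytip and Rassf5 fell most in germinal center cells, and memory cells have 1 filled circle.

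The other probe sets bore out some patterns and not others. Of 23 probe sets 18 lay above background on at least 1 array, and Itgb2, Itgb7, Selplg and Icam1 had only 1 each. In a fit over all probe sets, the plasma rise of Itga4 against naive cells was called by all 5 of its probe sets, at 0.76 to 2.83 (the dimmest lay above background on 0 of 3 naive arrays, where plasma cells were at least 2.01-fold higher), and the memory rise and the germinal center fall by the 3 brightest. The third of these was also lower in plasma than in memory cells (-0.74, adjusted p = 0.0123, limma). The fourth brightest was higher in plasma than in memory cells by 2.64 (adjusted p = 6.39e-07, limma), where the brightest gave -0.40. It showed 0.05 for germinal center against naive cells, but lay above background on 1 of 3 naive arrays and on 0 of 3 germinal center arrays. For Cd44 the second brightest gave 3.55 in plasma (adjusted p = 1.18e-06) and 1.09 in memory cells (adjusted p = 0.0733) against naive cells. The second Itgb1 probe set above background gave 0.98 in plasma against naive cells (adjusted p = 0.00688), and the other 4 never left background. The second Itgal probe set lay above background on 0 of 3 naive arrays and was at least 1.87-fold higher in plasma cells (adjusted p = 0.000112). It gave 0.80 in plasma against memory cells (adjusted p = 0.000906), where the brightest showed 0.02. That of Itga6 lay above background on 0 of 4 plasma and 2 of 3 naive arrays and was at least 1.32-fold lower in plasma cells (adjusted p = 0.0312).

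**Figure D5:**
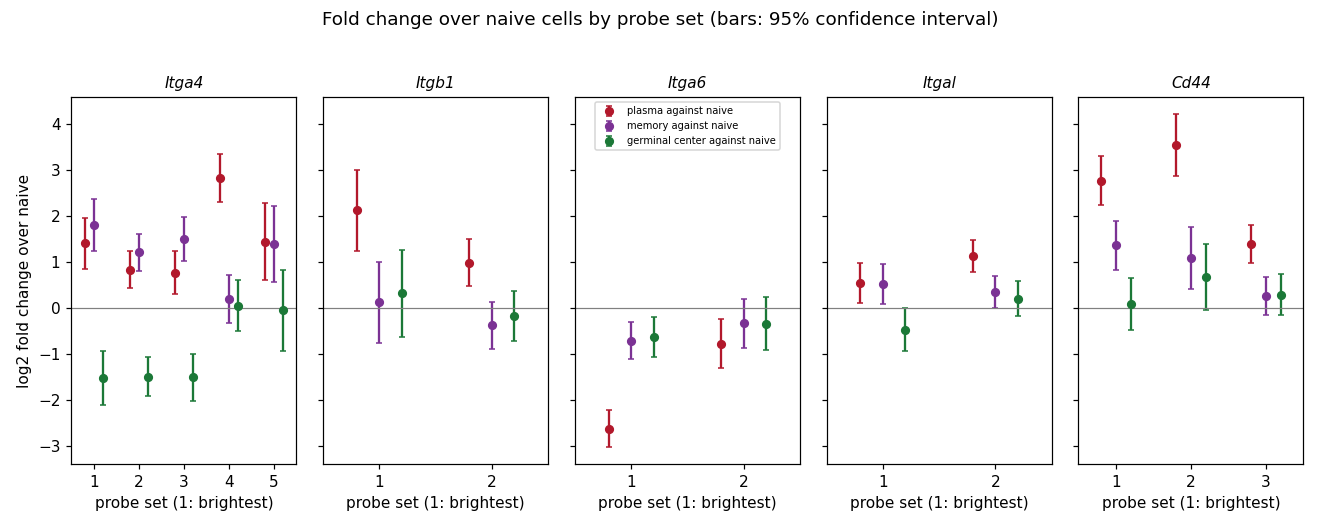
Log2 fold change over naive cells by probe set, with 95% confidence intervals, for the 5 genes with more than 1 probe set above background. Probe sets run from the brightest (1) to the dimmest. Points are fitted values, also where a subset lies at background and the fold is only a bound. Itga4 probe set 4 stands at 2.83 in plasma and 0.19 in memory cells, where probe set 1 stands at 1.41 and 1.81.

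Genes with the most similar profile were found as the smallest root mean square difference of centred log2 values over 14 arrays, among 10588 other genes above background in a whole subset. Itgb7 was nearest to Nrros (0.43) and Selplg to Irf4 (0.54). Irf4, a transcription factor needed for plasma cells, had geometric means of 3358 in plasma, 592 in memory, 66.7 in germinal center and 736 in naive cells. Itga4 was nearest to Pik3r5 (0.34), Cd44 to Atp8b2 (0.33), Icam1 to Prkd3 (0.27), Itga6 to Gga2 (0.25) and Itgb1 to Adssl1 (0.40). These values describe likeness over 4 subsets that stand apart, and no test was made.

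Most markers of other cells were low, and a few passed as higher in plasma cells, where Itgb1, Selplg and Cd44 were high. The summed intensity of 13 measured myeloid markers was 172 to 328 in plasma, 161 to 178 in memory, 176 to 192 in germinal center and 178 to 201 in naive cells, and 4 rose and 1 fell in plasma against naive cells. That of 10 T cell markers was 161 to 192, 125 to 136, 137 to 157 and 127 to 139, and 3 rose in plasma against naive cells. Over all genes 14.2% rose and 16.1% fell there. Thy1 measured 17.7 to 42.6 in plasma and 8.70 to 10.4 in naive cells. The myeloid marker Csf1r measured 30.8 to 145 in plasma and 27.4 to 33.6 in naive cells, and Lyz2 15.2 to 93.1 and 8.52 to 12.5. Adgre1 was lower in plasma (18.5 to 38.0) than in naive cells (45.1 to 62.4). Cd3g, Cd8b1, Itgam, Cd14, S100a8 and S100a9 were below background on all 14 arrays. The sum of 7 platelet markers was 193 to 251 in plasma, 128 to 161 in memory, 344 to 665 in germinal center and 192 to 231 in naive cells, with Itgb3 the 1 gene called in germinal center cells and Ppbp below background throughout. Over all genes 19.5% were called in germinal center against naive cells. The part of such other cells in the results was not tested.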

How the data were processed

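RNA of sorted B cell subsets was hybridised to 14 arrays. The authors deposited 1 linear intensity per probe set and array, made with RMA per the submitters' processing notes, with no version, software or chip definition given in the sources used here. Log2 was taken with no pseudocount. Of 45101 probe sets 34945 carry 1 gene symbol, 932 several and 9160 none, beside 64 controls. Each of 18193 genes was given by the probe set of highest mean log2 value. Models with 1 mean per subset were fitted on all genes and 14 arrays with limma 3.58.1 in R 4.3.3 (10 residual degrees of freedom, eBayes without trend, two-sided). Benjamini-Hochberg adjustment ran over all genes within each of 6 contrasts, with calls at an adjusted p under 0.05. Confidence intervals are at 95%. Where a printed gene or probe set passed and the dimmer subset had no array above background, its arrays were set to the higher of background and own value and the fold was given as "at least". The number of arrays limits the precision.

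The members and gene lists were chosen with earlier results of these data known. Named genes were all 9 members, up to 3 called genes in each direction per list and contrast, and Itgam, Itgae, Vcam1 and Fut7. Rap1a was also named, outside that rule, and Stk4, Tln1 and Rap1b were chosen after their values were seen. The fits were tested on simulated data. Alternatives covered normalization, a floor of 16, dim genes, the probe set, the variance model, single arrays, the actin ratio and replicate numbers. Replicate numbers are shared between subsets, but deviations of same-numbered arrays correlated between -0.22 and 0.25, over 0.1 in 6 of 19 pairs, so they were not treated as pairs. Figures were drawn with matplotlib 3.10.9 in Python 3.11.15.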

Additional observations from a re-analysis of the deposited data

How the results depend on the processing

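Of 54 gene and comparison pairs 35 were called, where a single comparison called 5.57% to 33.2% of all genes. Under 25 alternative fits 25 of these calls held throughout, 10 were lost under at least 1, and 0 changed direction. The calls lost most often were those of Itga6 in memory (17 fits) and germinal center cells (15 fits) against naive cells. Leaving out 1 array at a time gave 7 to 8 adhesion genes called in plasma against naive cells, 2 to 3 in memory against naive, 3 to 4 in germinal center against naive, 5 to 6 in memory against germinal center, 9 in plasma against germinal center and 6 in plasma against memory. In memory against naive cells 1 rather than 3 genes were called with the second brightest probe set, and in memory against germinal center cells 3 rather than 6 with the actin covariate; the cause was not tested. With the replicate block the counts were 7, 2, 3, 6, 9 and 6 in that order, and all were within 1.5 times the main count. The shares of all genes called in the alternative fits are not given here, so no change in these counts is read as particular to the adhesion genes.

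Differences that changed sign were uncalled. With arrays centred on their median, Cd44 in germinal center against naive cells was -0.0241 and Itgal in plasma against memory cells -0.0189. With the mean of all probe sets, Itgb1 in memory against naive cells was -0.0239 and Itga4 in plasma against memory cells 0.23. With the second brightest probe set, Itgal and Itgb1 in germinal center against naive cells were 0.20 and -0.18, Itgb1 in memory against naive -0.38 and Itga6 in memory against germinal center 0.0104. With the actin ratio, Itgb2 in germinal center against naive cells was 0.14. Without single arrays the ranges were -0.24 to 0.47 for Itgb1 in memory against naive, -0.63 to 0.0838 for Itgb1 and -0.27 to 0.0713 for Itga6 in memory against germinal center, -0.0661 to 0.16 for Itgal and -0.0335 to 0.17 for Itgb2 in plasma against memory, and -0.21 to 0.47 for Cd44 in germinal center against naive cells. Counts in the wider lists stayed within 1.5 times in 668 of 750 fits. Among 28 genes of integrin activation, 10 rather than 18 were called in plasma against naive cells with the second brightest probe set, and 6 rather than 11 in plasma against germinal center cells with the actin ratio. Dixon's test of outlying arrays was met by none of 18 groups of 4.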
